A study of Mus musculus with 3 samples.

Results

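Red blood cells are made in the bone marrow, next to the stromal cells that were sorted here, and 9 genes used to recognise the erythroid lineage are described: Gata1, Klf1, Epor, Tfrc, Alas2, Hemgn, Sptb, Car1 and Car2. They were chosen by name and read from probe sets annotated to a single gene symbol. All 9 were found among the 19938 genes measured, each with 1 probe set. CAR cells, CXCL12-abundant reticular cells, came from CXCL12-GFP knock-in mice and were hybridised to 2 arrays, from 2 mice. The other sort, called PaS below, held PDGFRa+ Sca+ CD45- lineage- cells combined from 3 Prx1-Cre Rosa26Ai9/+ Cxcl12gfp/+ mice on 1 array. All mice therefore carried GFP at the Cxcl12 locus, and all cells were taken at baseline from the marrow of tibia, femur and pelvis. The PaS mice also carried Prx1-Cre, a Cre driver of limb mesenchyme, and the Ai9 reporter at Rosa26. Genotype, pooling and cell type differ together between the sorts, and the PaS side has no replicate.

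Erythroid precursors arise when the transcription factor Gata1 and its partner Klf1 switch on a shared programme. Erythropoietin acts through its receptor Epor to keep the precursors alive. Iron enters through the transferrin receptor Tfrc, and Alas2 starts heme synthesis in the mitochondria. Hemgn is a nuclear protein of blood precursors, Sptb is the beta chain of the spectrin skeleton under the red cell membrane, and Car1 and Car2 are carbonic anhydrases, which interconvert carbon dioxide and bicarbonate. Several of these genes are not restricted to red cells. Gata1 is also used by megakaryocytes, mast cells and eosinophils, Tfrc by dividing cells at large, and Car2 by osteoclasts.

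Gata1 binds DNA at GATA motifs and Klf1 at CACCC motifs, so promoters of the genes are shown before their values. RefSeq promoters (GRCm38.p6) were matched for 7 of the 9 genes, and the 250 bases before each start site were searched on both strands for GATA with an A or T before it and an A or G after it, and for CACCC. Matches are in capitals; on the opposite strand the cores read TATC and GGGTG. In the sequences below no match overlapped another. The 4 promoters belong to the gene that passed the test (Hemgn), to Klf1 and Sptb, which lay on the same side of the comparison, and to Alas2, which lay on the other. They span chr4:46404184-46404433, minus strand for Hemgn, chr8:84901732-84901981, plus strand for Klf1, chr12:76710548-76710797, minus strand for Sptb and chrX:150547167-150547416, plus strand for Alas2.
Hemgn: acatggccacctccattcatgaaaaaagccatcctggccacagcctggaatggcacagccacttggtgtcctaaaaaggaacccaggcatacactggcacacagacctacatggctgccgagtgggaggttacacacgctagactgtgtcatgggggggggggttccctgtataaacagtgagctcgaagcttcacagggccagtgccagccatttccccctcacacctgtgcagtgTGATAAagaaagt
Klf1: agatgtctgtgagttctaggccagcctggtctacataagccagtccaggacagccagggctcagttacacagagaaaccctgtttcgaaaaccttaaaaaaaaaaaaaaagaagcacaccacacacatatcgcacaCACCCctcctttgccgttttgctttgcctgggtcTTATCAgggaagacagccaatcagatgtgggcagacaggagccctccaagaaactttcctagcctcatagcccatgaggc
Sptb: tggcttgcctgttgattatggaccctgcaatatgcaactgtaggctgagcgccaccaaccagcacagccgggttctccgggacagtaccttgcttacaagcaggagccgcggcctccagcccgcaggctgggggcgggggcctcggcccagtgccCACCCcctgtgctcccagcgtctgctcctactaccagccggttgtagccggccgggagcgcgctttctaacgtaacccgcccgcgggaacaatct
Alas2: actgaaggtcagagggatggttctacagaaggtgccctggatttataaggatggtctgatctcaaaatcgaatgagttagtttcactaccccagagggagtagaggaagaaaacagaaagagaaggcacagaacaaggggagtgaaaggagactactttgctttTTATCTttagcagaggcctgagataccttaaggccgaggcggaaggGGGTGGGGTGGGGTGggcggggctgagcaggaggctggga

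Hemgn held 1 GATA match, 13 bases before the start, and no CACCC. Klf1 held 1 of each, at 80 and 114 bases before the start. Sptb held no GATA match and 1 CACCC, and Alas2 held 1 GATA match and 3 CACCC in a row. Of the promoters not shown, Epor held 1 GATA match and 2 CACCC, and Gata1 and both start sites of Tfrc held CACCC alone. Among all 32841 RefSeq promoter windows of the same length, 26.5% held a GATA match, 52.0% a CACCC and 11.8% both. The GATA match was thus shared by promoters of genes on both sides of the comparison, Hemgn and Klf1 on one and Alas2 on the other. A match describes letters and not binding.

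The sorts were checked against their own markers first. All 16 markers of CAR and leptin receptor stroma were higher in CAR cells in limma's test, with a median log2 difference of 4.30, and of 12 measured markers of Sca-1+ progenitors 7 were lower and 2 higher. Ptprc, which encodes CD45, stood at 5.11 and 5.01 log2 units on the CAR arrays, against 8.27 on the array labelled PaS, although CD45+ cells were gated out. Pdgfra, whose product was a gate of the PaS sort, stood at 7.52 and 7.97 on the CAR arrays, against 4.33 on the array labelled PaS. Both go against that label, so each direction below is relative to the array labelled PaS. The median of all genes was 3.74 and 3.75 on the CAR arrays, against 3.77 on the PaS array. The 5th percentile was 1.87 and 1.69, against 2.40, and the upper quartile 4.82 and 5.01, against 4.52. The PaS array thus had the narrowest spread, and a given percentile does not mark the same log2 value on each array. Values have no detection calls, so a gene near the median cannot be told from background. In a bulk sort, fewer cells of a type and less RNA per cell cannot be told apart.

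Over the 9 erythroid genes, 7 were lower on both CAR arrays than on the PaS array and 2, Gata1 and Alas2, were higher on both. Of all genes, 46.8% were lower and 37.4% higher on both CAR arrays. At least 2-fold lower on both were Hemgn, Sptb and Car1, 3 of 9, against 8.92% of all genes, and 0 of the 9 were at least 2-fold higher on both, against 10.9%. In limma's test over all genes, 1 of the 9 passed at an adjusted p under 0.05, Hemgn, which fell in CAR cells; 6.42% of all genes were called lower and 15.0% in either direction. The median log2 difference, CAR minus PaS, was -1.07 over the 9 genes and -0.10 over all genes. It was -1.03 with CAR array 1 alone and -0.92 with CAR array 2 alone.

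**Figure D1:**
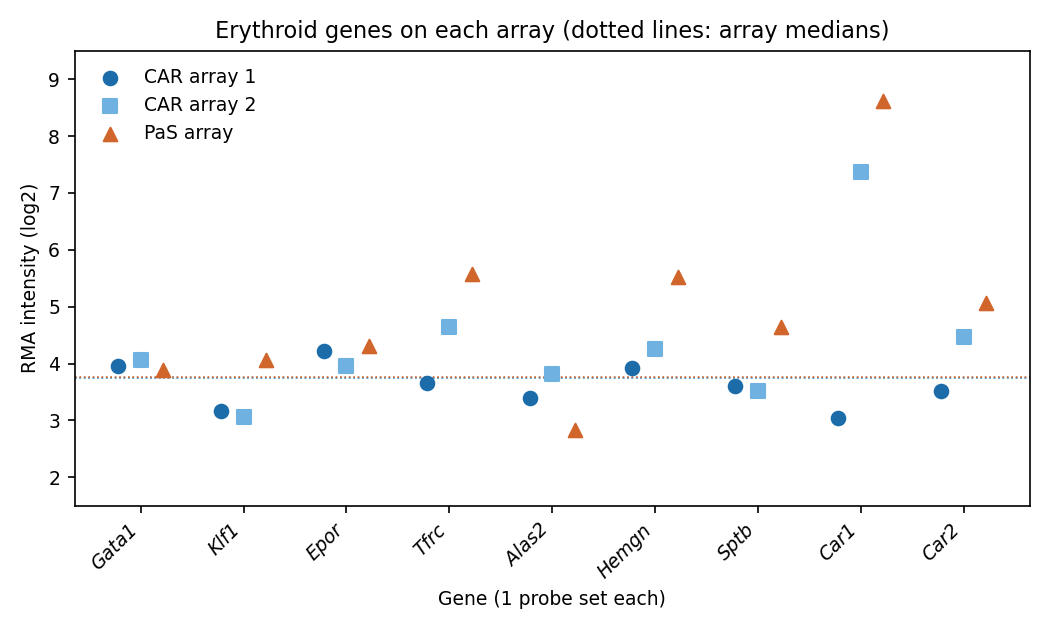
Log2 RMA intensity of the 9 erythroid genes, with 1 probe set each, on CAR array 1 (circles), CAR array 2 (squares) and the PaS array (triangles); dotted lines are the medians of all genes on each array. Car1 stands apart on CAR array 2 (7.37) and on the PaS array (8.61), but not on CAR array 1 (3.04), and Gata1 and Epor lie close together on the 3 arrays.

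The regulators were read first. Gata1, the master regulator of the lineage, stood at 3.95 and 4.07 log2 units on CAR arrays 1 and 2, against 3.88 on the PaS array. The 3 values lie within 0.19 log2 units of each other and close to the array medians. The fitted difference was 0.13 ± 0.28 (SE; 95% confidence interval -0.58 to 0.85, limma adjusted p = 0.774). Klf1, the CACCC-binding factor that switches on red cell genes, stood at 3.16 and 3.07 on the CAR arrays, against 4.07 on the PaS array. Both CAR values lay below the PaS value and were nearly equal, a log2 difference of -0.95 ± 0.28 (interval -1.66 to -0.24) that did not pass adjustment over all genes (limma adjusted p = 0.0790). Klf1 lay at percentile 33.4 of all genes on each CAR array and at 61.4 on the PaS array.

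The receptors came next. Epor, the receptor of erythropoietin, stood at 4.23 and 3.95 on the CAR arrays, against 4.31 on the PaS array. The CAR arrays lay farther from each other, by 0.28 log2 units, than their mean lay from the PaS array, and the difference was -0.22 ± 0.30 (interval -0.98 to 0.53, limma adjusted p = 0.633). Tfrc, the receptor that brings in iron bound to transferrin, stood at 3.66 and 4.65 on the CAR arrays, against 5.57 on the PaS array. CAR array 1 was 3.77-fold and CAR array 2 1.89-fold below the PaS array. The CAR arrays lay 1.99-fold apart, and the difference of -1.42 ± 0.47 (interval -2.61 to -0.23) did not pass (limma adjusted p = 0.1). On the PaS array Tfrc lay at percentile 91.1 of all genes.

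Alas2, the erythroid enzyme that opens heme synthesis, ran the other way. It stood at 3.40 and 3.81 on the CAR arrays, against 2.83 on the PaS array, where it lay at percentile 14.2 of all genes. The log2 difference of 0.77 ± 0.32 had an interval of -0.04 to 1.58 and did not pass (limma adjusted p = 0.158). Gata1 and Alas2, the 2 genes higher on both CAR arrays, both lie on the X chromosome, and the other 7 lie on autosomes. This was seen after the values, neither of the 2 passed, and X-linked genes at large were not counted. Other X-linked genes of the lists below lay on both sides, with Xk at -1.62, Was at -0.81 and Mpp1 at -0.46, against Car5b at 0.25.

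Hemgn and Sptb gave the closest agreement between CAR arrays among the genes that were at least 2-fold lower. Hemgn stood at 3.92 and 4.25 on the CAR arrays, against 5.52 on the PaS array, at percentile 90.6 there. It fell by 1.44 on the log2 scale, 2.71-fold lower in CAR cells (SE 0.30, limma adjusted p = 0.0408), and both CAR arrays lay clear of the PaS value. With 8 added to each intensity before the logarithm, which shrinks differences between dim values, the adjusted p was 0.0673. Sptb, the red cell spectrin chain, stood at 3.61 and 3.52 on the CAR arrays, against 4.64 on the PaS array. Its difference of -1.08 ± 0.28 missed the threshold (limma adjusted p = 0.0609), and it passed when arrays were centred on their medians (0.0459), with a robust prior (0.0485) and after quantile normalization (0.00937). The CAR arrays differed by 0.10 log2 units for Sptb and by 0.32 for Hemgn.

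**Figure D2:**
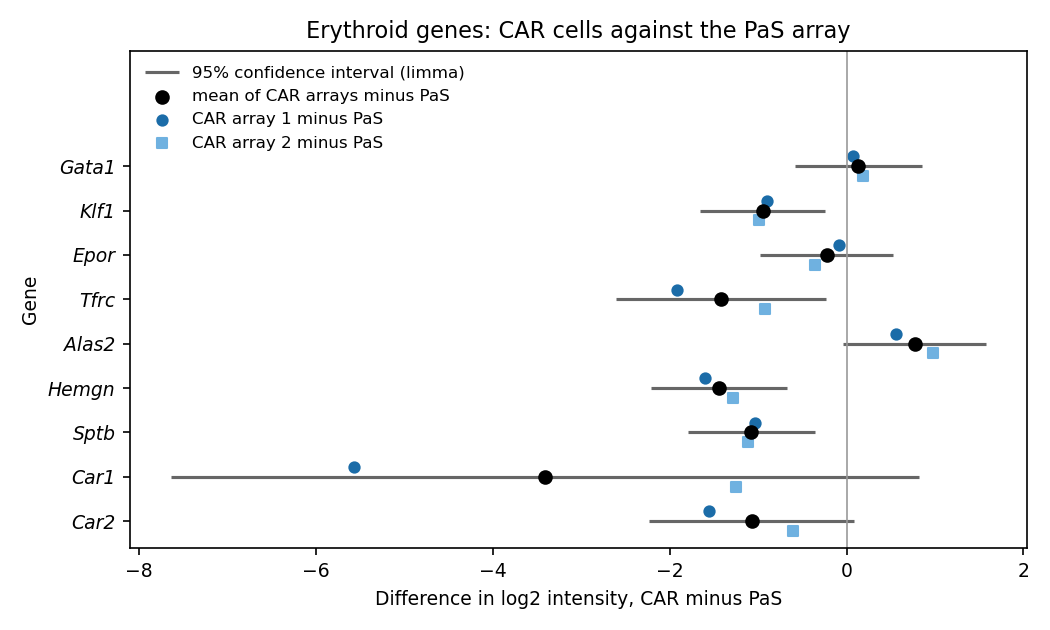
Difference in log2 intensity, CAR minus PaS, for each erythroid gene: black points are the mean of the 2 CAR arrays minus the PaS array with limma's 95% confidence interval, and coloured points are each CAR array alone. The interval of Car1 runs from -7.64 to 0.82, and those of Hemgn, Klf1, Sptb and Tfrc lie below 0 before adjustment over all genes.

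Car1 gave the widest values of the 9 genes. Its intensity was 8.22 on CAR array 1 and 165 on CAR array 2, against 391 on the PaS array (3.04, 7.37 and 8.61 log2 units). CAR array 1 thus lay 47.6-fold below the PaS array and CAR array 2 only 2.37-fold below it. Among all genes Car1 lay at percentile 30.0 on CAR array 1 and at 96.6 on CAR array 2, against 99.4 on the PaS array. The mean log2 difference, CAR minus PaS, was -3.41 ± 1.67 with an interval of -7.64 to 0.82 (limma adjusted p = 0.212), so its size cannot be given as a property of CAR cells. Car2, the related enzyme of red cells and osteoclasts, stood at 3.51 and 4.46 on the CAR arrays, against 5.06 on the PaS array. Its order over the arrays was that of Car1 at a smaller scale, an order also seen for Tfrc and Hemgn. The Car2 difference of -1.07 ± 0.46 did not pass (interval -2.23 to 0.08, limma adjusted p = 0.164).

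The gap of Car1 between the CAR arrays, 4.33 log2 units or 20.1-fold, was the largest of all 19938 genes, by absolute size. It was 3.94 after quantile normalization and 3.41 with 8 added to each intensity. No test of this gap is possible with 1 array on each side. For Car2 and Tfrc, CAR array 2 stood 1.93-fold and 1.99-fold above CAR array 1, gaps matched or passed by 4.21% and 3.62% of all genes. The other 6 genes had gaps between -0.28 (Epor) and 0.42 (Alas2), each matched or passed by at least 30.7% of all genes. Of the 9 genes, Car1 alone reached a 2-fold excess on CAR array 2, as did 2.64% of all genes, and 0 were 2-fold lower there, against 0.938% of all genes. Car1 made up 7.26% of the summed intensity of the 9 genes on CAR array 1 and 55.5% on CAR array 2, against 65.0% on the PaS array. That sum was 113 and 297 on the CAR arrays, against 602 on the PaS array, and without Car1 it was 105 and 132, against 210.

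**Figure D3:**
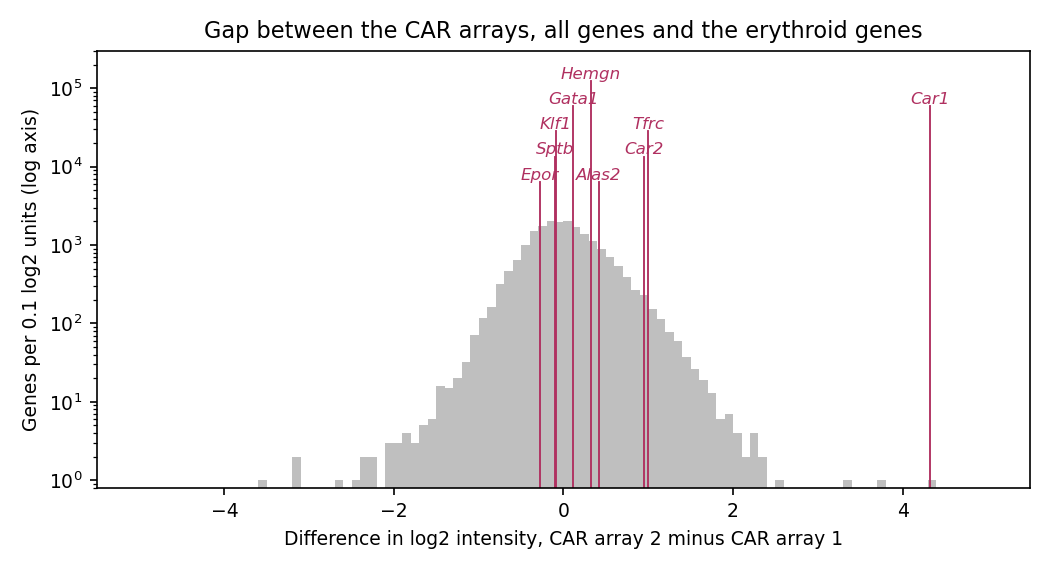
Distribution over 19938 genes of the difference in log2 intensity, CAR array 2 minus CAR array 1, with the number of genes on a log axis; vertical lines mark the erythroid genes, and their heights carry no value. Car1, at 4.33, lies at the far right end, and the other 8 genes lie well inside the distribution, with Epor lowest at -0.28.

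Other genes that separated the CAR arrays were read by a fixed rule, as the 10 largest gaps among genes whose mean was not below the median gene. Predicted, clone-named, microRNA, snoRNA, olfactory and vomeronasal genes were left out. After Car1 came Mrps18c, a mitochondrial ribosomal protein, at 2.14 and 5.87 on the CAR arrays, against 5.83 on the PaS array. Wfdc17, Ccl3, Ndufc2 and Atp1b3 were likewise higher on CAR array 2, by 2.52, 2.35, 2.26 and 2.25 log2 units. Ccl3 is a macrophage chemokine, Ndufc2 a respiratory chain subunit and Atp1b3 a subunit of the sodium pump. Ppbp, a platelet chemokine, Trdn, Set and Mpo, the neutrophil peroxidase, went the other way, at -3.16, -2.64, -2.45 and -2.36. Trdn was read from the brightest of 19 probe sets and Set from the brighter of 2. No other erythroid gene stood among the 10. Genes of granulocytes outside the 10 were read from their lists. Prg2, an eosinophil granule protein, stood at 5.13 and 3.05 on the CAR arrays, against 6.41 on the PaS array, and Mcpt8, a basophil protease, at 4.77 and 2.72, against 6.09. These genes were picked for their gaps or after their values were seen. Over the whole lists the median gap, CAR array 2 minus CAR array 1, was 0.19 for 20 general blood cell genes and -0.05 for 20 neutrophil genes, and CAR array 2 was the higher for 12 and 10 of them. It was -0.31 for 16 mast cell, basophil and eosinophil genes and -0.34 for 12 megakaryocyte genes, with CAR array 2 higher for 2 of each list. At least 2-fold lower on CAR array 2 were 4 neutrophil genes, 2 of the 16 and 1 of the 12, against 0.938% of all genes. The part of any cell type in the Car1 gap was not tested.

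The genes with values most like those of Car1 were found by distance, the root of the summed squared differences in log2 units over the 3 arrays. They were sought among the 17055 genes left after the same kinds of gene were excluded, at any level. Nearest were Wfdc17 (2.39), Atp1b3 (2.40), Plp2 (2.45), Atp5k (2.48) and Cox4i1 (2.49). Even the nearest gene thus lay over 2 log2 units away, and none of the 5 is an erythroid gene of the lists used here. The likeness rests on 3 arrays and is a description.

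The carbonic anhydrase family was then read as a whole. Of its 16 genes, 2 fell (12.5%, against 6.42% of all genes) and 1 rose (6.25%, against 8.56%) in CAR cells in limma's test, with a median log2 difference of -0.43. Counts this small do not set the family apart from all genes. Car3, a muscle and fat isoform, stood at 4.40 and 3.96 on the CAR arrays, against 5.71 on the PaS array (2.88-fold lower, limma adjusted p = 0.0409). Car12, a membrane-bound isoform, stood at 2.61 and 2.48, against 3.88 (2.54-fold lower, limma adjusted p = 0.0406), below the median level of all genes on the CAR arrays. Car13, a cytosolic isoform, stood at 4.85 and 5.76, against 3.27 (4.09-fold higher, limma adjusted p = 0.0436). All 3 calls were lost with 8 added to each intensity, where 0 of the 16 passed.

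**Figure D4:**
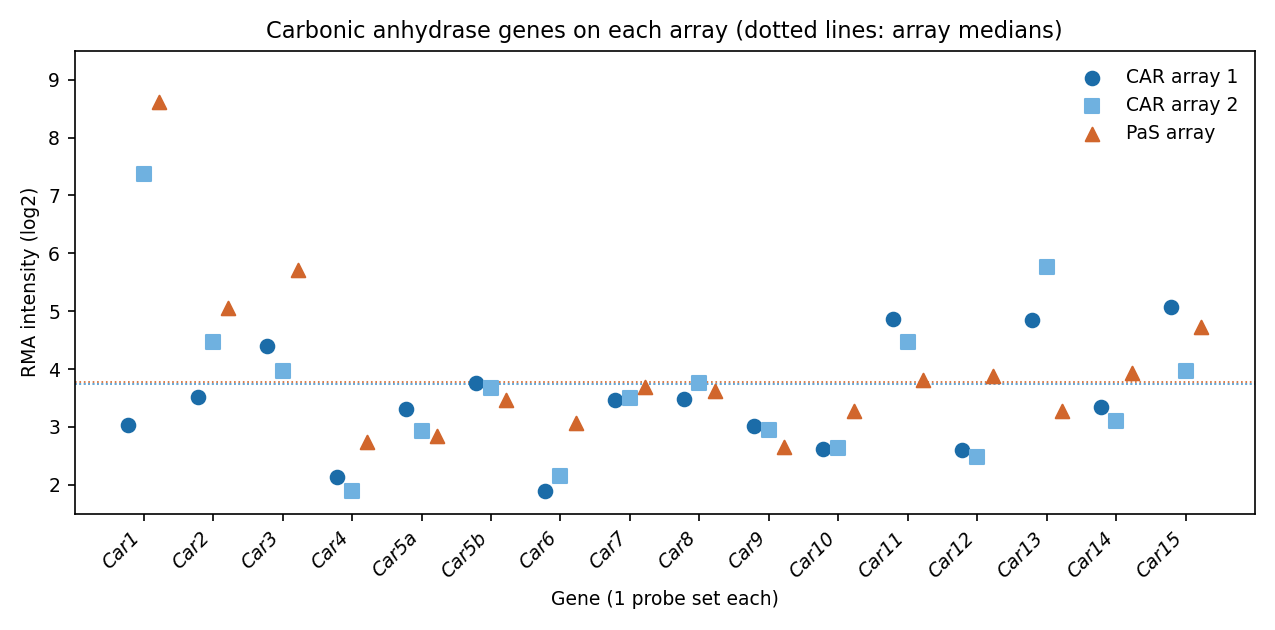
Log2 RMA intensity of the 16 carbonic anhydrase genes on CAR array 1 (circles), CAR array 2 (squares) and the PaS array (triangles), with the array medians dotted. Car1 is the member with the widest range, from 3.04 on CAR array 1 to 8.61 on the PaS array, while Car13 is higher on both CAR arrays (4.85 and 5.76) than on the PaS array (3.27).

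Other genes of the red cell programme were counted in fixed lists, set beside 6.42% lower and 8.56% higher over all genes. Of 25 transcription factors of the lineage and their partners, Gata1 and Klf1 included, 5 fell and 3 rose in CAR cells, with a median difference of -0.30. Those that fell were Ikzf1 (5.20-fold lower), Spi1 (4.73-fold), Myb (4.26-fold), Nfe2 (3.85-fold) and E2f2 (2.43-fold). Spi1 is the myeloid factor PU.1 and Ikzf1 the lymphoid factor Ikaros, and Myb drives blood progenitors at large. Those that rose were Runx1 (8.62-fold higher), E2f4 (4.36-fold) and Ldb1 (3.79-fold), the last a bridging cofactor of the Gata1 complex. With 8 added to each intensity 4 of these 8 calls were kept, those of Ikzf1, Nfe2, Runx1 and Ldb1. Partners of Gata1 that did not pass include Tal1, at 3.57 and 3.61 on the CAR arrays, against 3.82 on the PaS array, and Gfi1b, at 4.27 and 4.31, against 5.14.

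Heme synthesis followed. Of 19 measured genes 1 rose and 1 fell, with a median of -0.39. Clpx, a mitochondrial unfoldase that acts on Alas enzymes, was 2.87-fold higher in CAR cells (limma adjusted p = 0.0394), and Glrx5, an iron-sulfur cluster protein, was 3.01-fold lower (limma adjusted p = 0.0497). Both calls were lost with 8 added to each intensity, and that of Glrx5 also with the mean of all probe sets (0.0505). Alas1, the housekeeping counterpart of Alas2, stood at 4.25 and 5.04 on the CAR arrays, against 5.57 on the PaS array, and Fech, which inserts iron into heme, at 4.27 and 5.12, against 3.39; neither passed. CAR array 2 exceeded CAR array 1 for 17 of these 19 genes, and for 9691 of all 19938 genes. The median gap was 0.42 log2 units, against -0.01 over all genes. CAR array 2 also had the wider spread, with an upper quartile of all genes at 5.01, against 4.82 on CAR array 1. The part of this spread in the heme gap was not tested.

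Iron genes included the largest difference of the red cell lists. Of 18 genes, Tfrc included, 3 rose and 1 fell, and the median of 0.30 turned to -0.12 after quantile normalization. Cp, ceruloplasmin, which oxidises iron for export, was 26.6-fold higher in CAR cells, at 9.19 and 9.31 against 4.52 on the PaS array (limma adjusted p = 0.00810). Hfe, which binds the transferrin receptor, was 5.78-fold and Aco1, an iron-sensing RNA-binding protein, 3.27-fold higher. Exoc6, an exocyst subunit needed for transferrin recycling in mouse red cell precursors, was 4.15-fold lower. The ferroportin gene Slc40a1 stood at 5.57 and 5.70 on the CAR arrays, against 4.71 on the PaS array, and did not pass (limma adjusted p = 0.0846). With 8 added to each intensity the call of Cp was kept and those of Hfe, Aco1 and Exoc6 were lost.

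Membrane and skeleton genes of the red cell followed. Of 23 measured, Sptb included, 1 rose and 2 fell, with a median of -0.31. Gypc, a glycophorin that is also made outside red cells, was 4.26-fold higher in CAR cells. Cd24a, a surface glycoprotein of many blood cells, was 3.48-fold lower and Xk, a membrane protein of the Kell complex, 3.08-fold lower, a call lost with 8 added to each intensity. The anion exchanger Slc4a1, the major membrane protein of red cells, stood at 3.62 and 4.11 on the CAR arrays, against 4.46 on the PaS array, and Rhag, an Rh complex protein, at 3.52 and 3.16, against 3.54; neither passed. Of the 5 spectrin genes measured 0 passed in limma's test: the widely expressed chains Sptan1 and Sptbn1 differed by 0.32 and 0.57 log2 units, against -1.08 for Sptb.

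Erythropoietin signalling and late maturation showed no common direction. Of 15 signalling genes, Epor included, 2 rose (Gab1, 11.3-fold, and Socs3, 4.96-fold) and 1 fell (Ptpn6, a blood cell phosphatase, 3.73-fold), and the median of 0.15 turned to -0.10 after quantile normalization. Jak2, the kinase bound to Epor, stood at 5.10 and 5.75 on the CAR arrays, against 4.93 on the PaS array. Of 23 late maturation genes, Hemgn included, 3 rose and 2 fell, with a median of 0.01. Bnip3l, a mitophagy receptor, was 2.88-fold, Ube2o 2.59-fold and Ube2l6 2.49-fold higher in CAR cells; the last pair are ubiquitin-conjugating enzymes. Mns1 was 5.20-fold lower. With 8 added to each intensity the 3 higher calls and that of Hemgn were lost and that of Mns1 was kept; Bnip3l also lost its call after quantile normalization. Trim10 and Trim58, ubiquitin ligases of late red cell precursors, stood between 3.21 and 3.53 on the 3 arrays.

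Of the globin list, 6 of 13 genes had a probe set of their own, and adult alpha and beta globins are not analysed here. Hbb-y, an embryonic beta-type globin, stood at 2.69 and 2.31 on the CAR arrays, against 4.06 on the PaS array (2.95-fold lower, limma adjusted p = 0.0374). Hbq1b, a theta globin, stood at 3.61 and 3.29, against 5.27 (3.52-fold lower, limma adjusted p = 0.0273). The CAR values of both lay below the median level of all genes, and both calls were lost with 8 added to each intensity. Hbq1a and Hbb-bh2, with log2 differences of -1.05 and -0.94, did not pass. Over the 6 genes the median difference was -1.0, and 5 were lower on both CAR arrays, against 46.8% of all genes. The exception was Hba-x, the embryonic zeta globin, at 3.90 and 3.65 on the CAR arrays, against 3.77 on the PaS array.

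Markers of other cells that use some of the same genes were set beside these values, and beside the 6.42% lower and 8.56% higher over all genes. Of 12 measured megakaryocyte genes 3 fell (F2rl2, 3.25-fold, Tubb1, 2.99-fold, and Pf4, at 4.27 and 4.33 on the CAR arrays against 5.88) and 0 rose, with a median of -1.07 and summed intensities of 360 and 165 on the CAR arrays, against 549 on the PaS array. Of 16 mast cell, basophil and eosinophil genes 1 fell, or 6.25% (Hdc, the histamine-forming enzyme, 3.35-fold), with sums of 211 and 150, against 390. Of 14 osteoclast genes 1 fell, or 7.14% (Mmp9, also a neutrophil gene, 5.20-fold). Both shares lay near that of all genes. Of the osteoclast genes 8 were lower and 5 higher on both CAR arrays, and the sums were 355 and 366, against 429. Without Mmp9 the osteoclast sums were 323 and 345 on the CAR arrays, against 293 on the PaS array. Ctsk, the bone-degrading protease cathepsin K, stood at 5.75 and 6.72 on the CAR arrays, against 4.33 on the PaS array (limma adjusted p = 0.0523). Ctsk alone gave 53.9 and 105 of the sums without Mmp9, against 20.1. Atp6v0d2 (log2 difference -1.21) and Oscar (-0.87) were lower on both CAR arrays and did not pass. Calcr, the calcitonin receptor, stood at 2.64 and 2.68, against 2.63. Dividing-cell genes, which matter for Tfrc, fell in 12 of 19 cases, with sums of 493 and 576, against 1629; Aurkb was 6.20-fold and Mki67 5.38-fold lower. General blood cell genes fell in 12 of 20 cases, with sums of 778 and 1026 on the CAR arrays, against 3773 on the PaS array, and neutrophil genes in 15 of 20, with sums of 3645 and 3386, against 19848. No gene of these lists was at 0. The summed level of each of these 6 lists was lower on both CAR arrays than on the PaS array, as was that of the 9 erythroid genes. Leaving out the 1 gene most in excess on the PaS array, a check added after the values were seen, turned the osteoclast sums and left the other 5 lower on both CAR arrays. The sums of other red cell lists were mixed. They were higher on both CAR arrays for iron genes (3177 and 4398, against 2247) and transcription factors (1618 and 1449, against 1013). The same held for erythropoietin signalling (699 and 715, against 433) and late maturation (741 and 866, against 634). Single bright genes weigh on such sums. Runx1 alone gave 621 and 552 of the transcription factor sums, against 68 on the PaS array. Bnip3l gave 296 and 251 of the late maturation sums, against 94.5. Higher sums were not recomputed without the gene most in excess on the CAR arrays, so they may not hold without it. For heme synthesis they were 520 and 553, against 537. Globin and membrane sums were lower on both, but the membrane sums turned without Cd24a (766 and 816, against 645). With 8 added to each intensity the calls kept were 1 of 3 for megakaryocytes, 1 of 1 for mast cells, basophils and eosinophils, 0 of 1 for osteoclasts, 8 of 12 for dividing cells, 7 of 12 for general blood cells and 12 of 15 for neutrophils. The part of these cells in the erythroid differences was not tested.

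**Figure D5:**
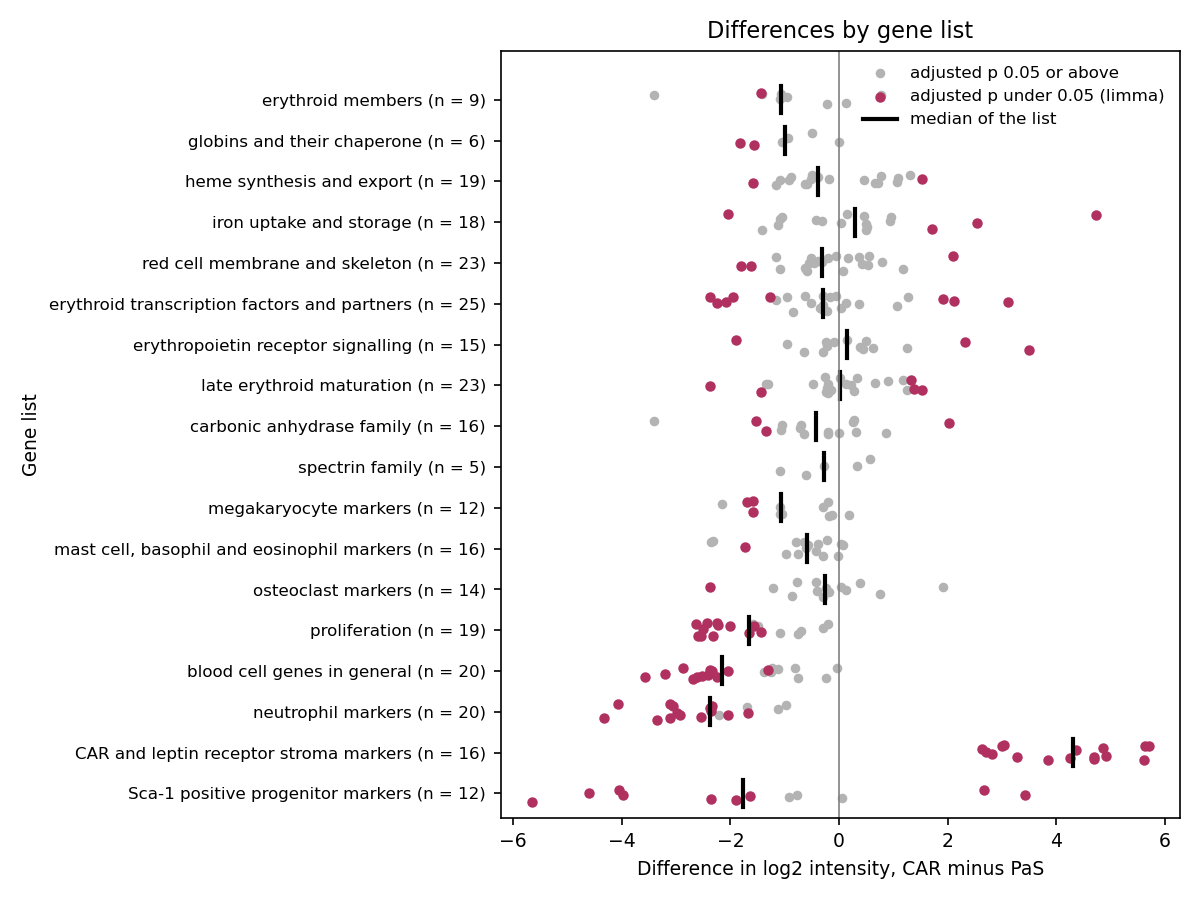
Difference in log2 intensity, CAR minus PaS, for each measured gene of 18 lists (jittered vertically), coloured where limma's adjusted p was under 0.05, with a black bar at the median of each list. The erythroid list has 1 coloured gene of 9 and a median of -1.07, while the general blood cell list has 12 of 20 and a median of -2.15.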

How the data were processed

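Each of the 3 arrays was hybridised with biotin-labelled cDNA from total RNA amplified with a NuGEN kit for picogram to nanogram inputs, per the labels' protocols. The deposited values are probe set intensities on a linear scale, made by the authors with Affymetrix Expression Console and RMA, per the submitters' processing notes; versions and genome build: not given in the sources used here. Of 35556 probe sets, 21789 carried 1 gene symbol, 1621 several (not named) and 12146 none here; 21698 took current symbols through gene IDs. The brightest probe set stood for each of 19938 genes. Log2 of the intensity was fitted, CAR minus PaS, with limma 3.58.1 in R 4.3.3 (lmFit, eBayes), two-sided, Benjamini-Hochberg over all genes, threshold 0.05. The fit had 1 residual degree of freedom, moderated by a prior SD of 0.253 log2 units worth 4.20 degrees of freedom; its spread comes from the CAR arrays, whose variation is taken to hold for PaS too. With so few arrays the precision is low.

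The 9 genes and all lists were chosen with earlier results of these data known. Named were the 9 genes, the called members of each list and up to 4 with its largest differences, the 10 largest gaps between CAR arrays, the 5 genes nearest to Car1, and Ptprc, Cxcl12 and Pdgfra; for the long non-erythroid lists examples are given. Values that did not pass were added after they were seen for Tal1, Gfi1b, Alas1, Slc40a1, Slc4a1, Rhag, Jak2, Trim10, Trim58, Hba-x and Calcr. The same holds for Car5b, Was and Mpp1. Promoter sequences are from RefSeq.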

Additional observations from a re-analysis of the deposited data

How the results depend on the processing

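The direction of the 9 genes' differences was the same under centring and quantile normalization, the only settings that could have turned it. It was also the same under the filter on low values (7 of the 9 genes remain) and the mean of all probe sets. Both other variance models, 8 added to each intensity and either CAR array alone left it the same too. In those settings it had to hold, since each gene had 1 probe set and lay on the same side of PaS on both CAR arrays. Of all 79 such values 0 reversed. Of the 61 with a test, 1 lost its call and 7 gained one; the 18 from either CAR array alone have no test. Quantile normalization, which equalises the spread of the arrays, called 5 of the 9 lower (Car2, Klf1, Tfrc, Sptb and Hemgn) and 1 higher (Alas2), instead of 1 and 0, put 5 instead of 3 at least 2-fold lower on both CAR arrays, and moved their median to -1.34. Centring and a robust prior each called 2 lower. Adding 8 called 0 of the 9 and gave a median of -0.73; at an unadjusted p under 0.05 and no added value, 4 of 9 passed, as did 35.1% of all genes. With either CAR array alone the median ran from -1.03 to -0.92. The number lower than PaS was 7 of 9 each time, as it had to be with each gene on the same side on both CAR arrays. The number at least 2-fold lower ran from 3 to 5, and these counts were added after seeing the data. Over all genes, 2831 were lower and 2636 higher after quantile normalization and 197 and 656 with 8 added, instead of 1281 and 1706; 510 were lower when genes below the median level were left out. The share of calls that were higher, 57.1%, became 48.2%, 76.9% and 80.2% in those settings and 47.9% with an intensity trend. Of the other lists' genes, 100 were lower after quantile normalization and 38 with 8 added, instead of 63. The cause of these changes was not tested. Calls without a CAR array could not be made, since no residual degree of freedom is left. No paired analysis was possible, since the sorts came from mice of different genotypes and the labels name no pairs. Dim values, with no detection calls, limit all folds of genes near the array medians.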
